A study of Rattus norvegicus with 30 samples.

Results

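The difference between kainate-treated and control rats was followed from 24 to 240 h, gene by gene, in hippocampal RNA. Per the labels, the rats received kainate, a glutamate receptor agonist that brings on seizures, or phosphate-buffered saline (PBS), and the hippocampus was taken 24 or 240 h later. These are 4 groups of 3 Affymetrix arrays, 12 of the 30 arrays of the series, which cover 3 further times. The labels give no dose, strain or age and do not say whether each array stands for 1 animal, so the p-values measure only the spread between arrays. At each time the kainate effect is the mean log2 signal of the kainate arrays minus that of the PBS arrays. The change is the effect at 240 h minus the effect at 24 h, so a negative change means that kainate arrays lay relatively lower at the later time. Of 8740 probe sets that are not array controls, the 5899 above a signal of 35 on at least 3 of these arrays were tested, and they stand for 3512 of 4736 genes. Gene counts and named genes refer to the probe set with the highest mean log2 signal.

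Kainate drives the recurrent excitatory circuits of the hippocampus, and the resulting seizures can injure pyramidal neurons and interneurons. Injured tissue is answered by microglia, the resident macrophages, which take up debris and present antigen, and by astrocytes, which enlarge and build up intermediate filaments. Neurons meanwhile alter the expression of calcium-signalling proteins, secreted peptides and synaptic proteins, and part of this passes while gliosis can last.

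A working description of these samples, recovery of neuronal genes with residual glial change, was set against the data. Median kainate effects on the log2 scale went from 0.56 at 24 h to 0.12 at 240 h over 12 microglia and macrophage markers and from −0.46 to −0.09 over 25 neuron markers. Over 17 reactive astrocyte genes they went from 0.40 to 0.29, and at 240 h 13 of the 17 were positive, against 53.4% of all genes. Over 16 astrocyte markers they went from −0.35 to −0.09, with 4 of the 16 positive at 240 h. A median of 0.30 at 240 h was also that of 14 blood and endothelial markers. Over 16 cytokine, chemokine and acute inflammation genes medians went from 0.29 to 0.24, with 12 positive at 240 h. Over 17 cell cycle genes they went from 0.30 to 0.21, with 13 positive. Positive medians at 240 h were thus not particular to reactive astrocyte genes. Median differences between the times over the reactive astrocyte genes were −0.27 on kainate and −0.47 on PBS arrays. At an unadjusted p under 0.05, 3 of the 17 reactive astrocyte genes were higher at 240 h, Hspb1, Timp1 and Cp. None was lower, and of all genes 5.58% were higher and 2.99% lower. Cp had been on the negative side at 24 h. No gene, glial or neuronal, passed the test of the kainate effect at 240 h, which does not show that the groups were alike with 3 arrays each. The summed signal of 12 microglia and macrophage markers was 929 to 1010 on PBS arrays and 1415 to 1608 on kainate arrays at 24 h, against 875 to 1031 and 939 to 1022 at 240 h. For 25 neuron markers it was 27886 to 29414 and 21487 to 22937 at 24 h, against 27984 to 31597 and 27526 to 30124 at 240 h. By these sums kainate and PBS arrays lay apart on both lists at 24 h and overlapped at 240 h. In whole tissue fewer cells of a type and less RNA per cell cannot be told apart.

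Arrays of a group correlated with r of 0.923 to 0.959 (median 0.943). None of 5 array measures differed in its change by an exact permutation test over 400 arrangements, two-sided, among them the array median (0.14 on the log2 scale, exact p = 0.135, adjusted over the 5 measures 0.56) and the 3 prime to 5 prime ratios of Gapdh (−0.14, exact p = 0.475) and beta-actin (−0.14, exact p = 0.275). PBS arrays differed between the times: the summed signal of 14 oligodendrocyte and myelin genes was 9734 to 9850 on PBS arrays of 24 h and 14596 to 15939 on those of 240 h. Time since treatment, age and any batch of arrays tied to time cannot be told apart. Each effect is measured against PBS arrays of its own time.

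The change passed the test (limma, Benjamini-Hochberg adjusted p under 0.05) at 100 of 5899 probe sets, 1.70%, with 35 higher (0.593%) and 65 lower (1.10%) and 1086 (18.4%) at an unadjusted p under 0.05. By gene 60 passed (1.71% of 3512), 23 higher (0.655%) and 37 lower (1.05%). At an unadjusted p under 0.05, 11.6% of all genes were higher and 7.72% lower, the background for the list counts below at that level. For list members that passed, the background is the 0.655% higher and 1.05% lower of all genes. All 65 lower probe sets had a positive effect at 24 h and all 35 higher ones a negative effect, so every passing change ran against the effect of 24 h. The change contains the effect at 24 h with its sign turned, which in part fixes this opposition. Kainate and PBS arrays of 24 h did not overlap at all 65 and at 34 of the 35. The choice by the change in part fixes this too, so groups apart at 24 h in genes named for a passing change add no support. The negative changes had median effects of 1.27 at 24 h and −0.18 at 240 h, and the positive ones −0.82 and 0.52; these values are part of the change and are given with no test. The number that passed was 34 without PBS replicate 1 of 240 h, 61 without PBS replicate 3 of 240 h and 48 and 42 without PBS replicates 2 and 3 of 24 h. It was 54 without kainate replicate 1 of 240 h and 45 without kainate replicate 3 of 24 h. With all 30 arrays in the fit it was 371, 197 higher and 174 lower, and without an intensity trend in the moderation 44, 9 higher and 35 lower.

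The effects of the 2 times have no arrays in common. At 24 h 393 probe sets passed (6.66%), 191 higher (3.24%) and 202 lower (3.42%), and at 240 h 0 passed (0), with 520 at an unadjusted p under 0.05 (8.82%). Among other settings 2 passed at 240 h with all 30 arrays in the fit, 1 with no filter on signal and 1 without kainate replicate 3 of 240 h. The 191 probe sets that were higher at 24 h had a median effect of 0.97 at 24 h and −0.03 at 240 h, where 87 of them (45.5%) were still on the positive side. The 202 lower ones had medians of −0.77 and 0.01, with 99 (49.0%) still on the negative side. Over all 5899 probe sets 53.1% were positive at 240 h, and the 2 effects correlated across probe sets with r = −0.006 (rho = −0.03), a description since probe sets are not independent. By gene, 244 passed at 24 h (6.95%), and of the 108 higher (3.08%), 6 were higher and 4 lower at 240 h at an unadjusted p under 0.05. Of the 136 lower (3.87%) 5 were lower and 7 higher at that level, where 5.58% of all genes were higher and 2.99% lower.

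**Figure D1:**
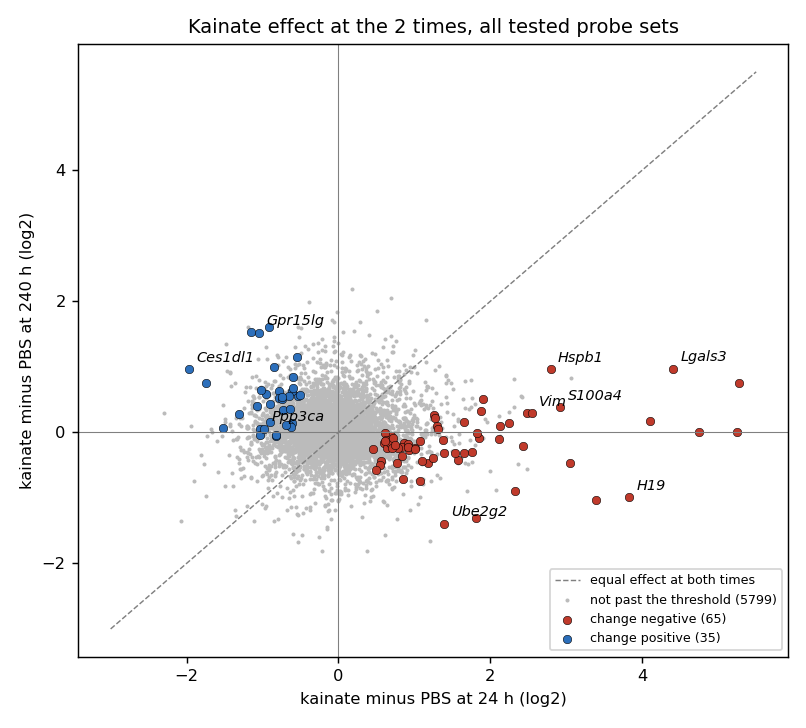
Kainate effect at 24 h (horizontal axis, log2) against the kainate effect at 240 h (vertical axis, log2) for each tested probe set, with those whose change passed the test coloured by direction and some genes named. The 65 negative changes have median effects of 1.27 at 24 h and −0.18 at 240 h, the 35 positive ones −0.82 and 0.52, and no probe set passed at 240 h.

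The second most negative change of all genes was that of a microglia and macrophage gene. Lgals3, galectin-3 of activated macrophages, measured 10.9, 10.9 and 16.1 on PBS arrays and 247, 271 and 270.0 on kainate arrays at 24 h, then 10.9, 29.2 and 10.9 on PBS and 25.3, 26.2 and 39.2 on kainate arrays at 240 h. Its kainate arrays lay far above every PBS array at 24 h, while at 240 h the lowest of them stood below the highest PBS array. The effect was 4.40 at 24 h and 0.97 at 240 h (unadjusted p = 0.0322, limma, not passing), a change of −3.43 ± 0.58 (SE, limma adjusted p = 0.0083; each group has 3 arrays here and throughout). The PBS values of 10.9 lie at the floor, at both times, while those of 16.1 and 29.2 lie above it. The effect at each time is therefore understated, and the change may be off in either direction. Apart from the kainate arrays of 24 h, only the value of 39.2 exceeded the filter signal. Lgals3 was thus tested only because of its high kainate arrays of 24 h. With no filter on signal its change still passed (limma adjusted p = 0.0246). Of 12 microglia and macrophage markers, Lgals3 alone passed for the change, 3 reached an unadjusted p under 0.05 as lower (7.72% of all genes did) and the median change was −0.49, against 0.07 for all genes. Cyba, part of the NADPH oxidase of phagocytes, had an effect of 2.40 at 24 h and 0.55 at 240 h, and its change of −1.85 ± 0.52 (SE) did not pass (limma adjusted p = 0.0816). Aif1, a cytoplasmic microglial protein, had effects of 0.56 and −0.27, neither passing.

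Negative changes also passed for 2 genes of complement and antigen presentation. C1qb, a chain of the complement starter C1q made by microglia, measured 149, 108 and 119 on PBS and 360.4, 537 and 381 on kainate arrays at 24 h, and 163, 165 and 188 on PBS and 118, 116 and 199 on kainate arrays at 240 h. At the later time 2 of 3 kainate arrays lay below all PBS arrays and the other above them. Its change was −2.05 ± 0.32 (SE, limma adjusted p = 0.00368). RT1-Da, a class II histocompatibility chain, measured 30.7, 36.2 and 56.3 on PBS and 176, 183 and 163 on kainate arrays at 24 h, and 49.9, 54.5 and 55.7 on PBS and 59.7, 46.5 and 67.6 on kainate arrays at 240 h, so that groups overlapped only at the later time. The change was −2.03 ± 0.36 (SE, limma adjusted p = 0.0111), and both tested probe sets of each of these genes passed. Of 17 genes on the list 2 passed as lower and 0 as higher, and 7 were lower at an unadjusted p under 0.05 (7.72% of all genes were). The median effect was 0.46 at 24 h and 0.10 at 240 h. Psmb8, an immunoproteasome subunit, had a change of −1.86 ± 0.53 (SE) that did not pass (limma adjusted p = 0.0824), and its PBS arrays were themselves 1.91 higher on the log2 scale at 240 than at 24 h (limma adjusted p = 0.0159).

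Among lysosomal genes the change of Cd63 passed. Cd63, a tetraspanin of late endosomes and lysosomes, measured 364, 309 and 287 on PBS and 1078, 899 and 1052 on kainate arrays at 24 h, then 373, 386 and 503 on PBS and 282, 336 and 391 on kainate arrays at 240 h. Kainate arrays were the highest of all at 24 h and reached from below to within the PBS range at 240 h, an effect of −0.32 with a 95% interval of −0.67 to 0.03. Its change was −1.98 ± 0.23 (SE, limma adjusted p = 0.000357), and it passed whichever of the 12 arrays was left out. Cd9, a related tetraspanin of the cell surface, changed by −1.99 ± 0.29 (SE, limma adjusted p = 0.00196) on 1 of its 2 tested probe sets. Of 13 lysosomal genes Cd63 alone passed, while 6 were lower and 1 higher at an unadjusted p under 0.05 (7.72% and 11.6% of all genes). Among the 6 were the cathepsins Ctsb (−0.96 ± 0.24 SE, limma adjusted p = 0.0568), Ctsk, Ctsl and Ctss. The other direction was Psap, the precursor of saposins that help degrade sphingolipids, with effects of −0.43 and 0.24 and a change of 0.67 ± 0.17 (SE, limma adjusted p = 0.0568, not passing).

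The gene lists were drawn up for this comparison with earlier results of these data known. Among them that of reactive astrocytes had the most passing members, 5 of 17, a rank that this choice may in part fix. Vim, an intermediate filament that reactive astrocytes build up, measured 186, 206 and 200.1 on PBS and 1006, 1252 and 1216 on kainate arrays at 24 h, then 152, 81.8 and 77.9 on PBS and 119, 129.7 and 115 on kainate arrays at 240 h. The kainate arrays of 24 h stood well above the other 9, and at 240 h the kainate arrays lay inside the PBS range, with an effect of 0.29 (95% interval −0.17 to 0.75). The change was −2.26 ± 0.31 (SE, limma adjusted p = 0.00118). PBS arrays were also lower at 240 than at 24 h, with a log2 difference of −0.99 (limma adjusted p = 0.028). The 5 passing genes were all lower, Vim, S100a10, Timp1, Igfbp2 and Hspb1 (1.05% of all genes passed as lower). The list's median change was 0.01, with a median effect of 0.40 at 24 h and 0.29 at 240 h. At the unadjusted level 7 were lower and 2 higher (7.72% and 11.6% of all genes). The latter were Gap43, a growth cone protein that neurons also express, and Cp, ceruloplasmin. Cp had effects of −0.29 at 24 h and 1.07 at 240 h (unadjusted p = 0.0226, limma, not passing), and its change of 1.36 ± 0.59 (SE) did not pass (limma adjusted p = 0.238).

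Negative changes also passed for a pair of S100 calcium-binding proteins. S100a10, the annexin A2 partner, measured 133, 147 and 132 on PBS and 639.6, 793 and 808 on kainate arrays at 24 h, and 108, 80.8 and 74.2 on PBS and 42.0, 87.7 and 112 on kainate arrays at 240 h. S100a4 measured 53.4, 37.1 and 40.2 on PBS and 259, 398 and 337 on kainate arrays at 24 h, and 37.7, 41.2 and 42.9 on PBS and 39.7, 72.6 and 51.5 on kainate arrays at 240 h. In both genes the kainate arrays were apart at 24 h and overlapped the PBS arrays at 240 h. The changes were −2.65 ± 0.40 (SE, limma adjusted p = 0.00304) and −2.54 ± 0.37 (SE, limma adjusted p = 0.00217). They were the 2 passing genes of 11 S100 proteins and annexins (1.05% of all genes passed as lower), whose median change was −0.08. On this list 2 were higher and 2 lower at an unadjusted p under 0.05 (11.6% and 7.72% of all genes). Within this family S100b, an astrocyte protein, ran the other way with effects of −0.58 and 0.01 (change limma adjusted p = 0.191, not passing).

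Hspb1, a small heat shock protein, and Timp1 passed for the change, and on the probe sets with the highest signal their groups were still apart at 240 h. Hspb1 measured 219.7, 200.2 and 113 on PBS and 1103, 1356 and 1112 on kainate arrays at 24 h, and 134, 224 and 319 on PBS and 499, 394 and 363 on kainate arrays at 240 h. Its kainate arrays stayed above all PBS arrays at the later time, with an effect of 0.96 (unadjusted p = 0.00395, limma, not passing). The change was −1.83 ± 0.40 (SE, limma adjusted p = 0.0347); the gene passed in 3 of 12 fits that left out an array (highest adjusted p 0.0791). Of its other 3 probe sets 2 passed with larger changes, −3.93 and −4.52, and effects of 0.18 and 0.76 at 240 h, while the third had a change of 0.61 that did not pass and an effect of 0.55 at 240 h. Timp1, an inhibitor of metalloproteinases, measured 149, 155 and 185 on PBS and 576, 704 and 550.3 on kainate arrays at 24 h, and 103, 119.7 and 150.2 on PBS and 162, 174 and 191 on kainate arrays at 240 h. Again the kainate arrays were all above the PBS arrays at both times, and the effect went from 1.90 to 0.51 (unadjusted p = 0.0107, limma, not passing), a change of −1.39 ± 0.25 (SE, limma adjusted p = 0.0123). The other probe set of Timp1 had a change of −5.25 and an effect of 0 at 240 h, being above the floor only on the kainate arrays of 24 h, which alone carried it through the filter. Groups did not overlap at 240 h for 15.1% of all genes.

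**Figure D2:**
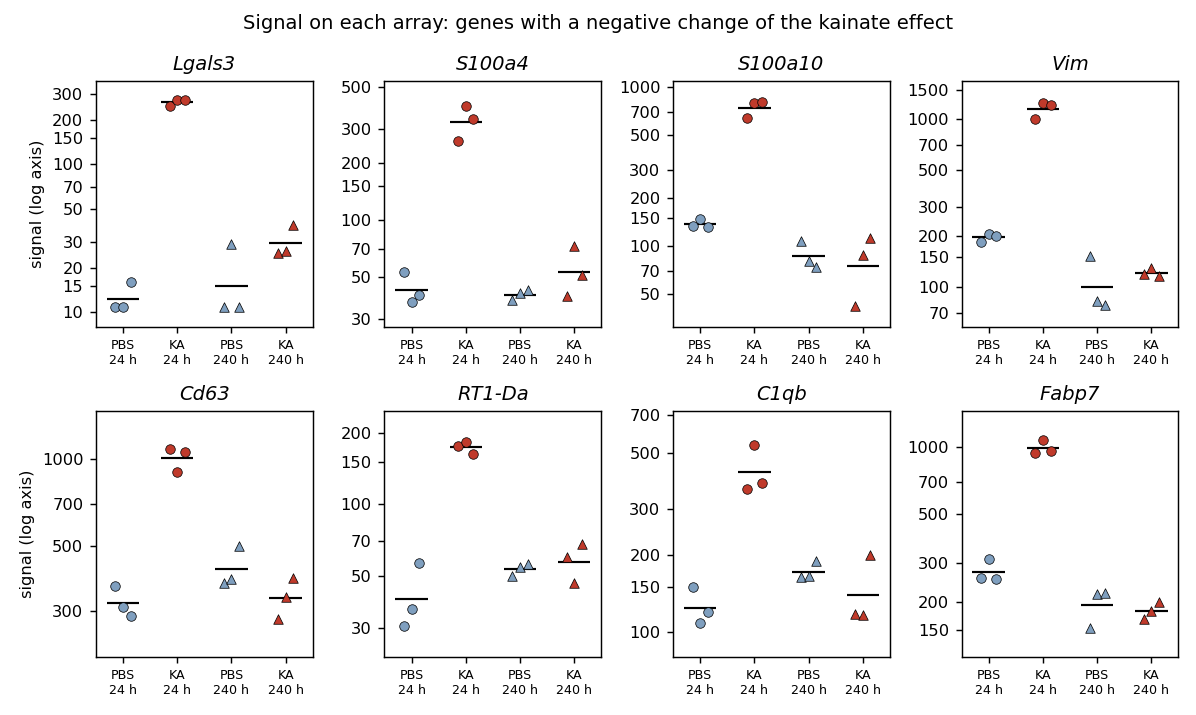
Signal of each array (vertical log axis) for 8 genes with a negative change, with PBS and kainate (KA) arrays of 24 h (circles) and 240 h (triangles) side by side and horizontal lines at the group means of the log2 signal. In each panel the 3 kainate arrays of 24 h are the highest of all 12, and the kainate arrays of 240 h lie near the PBS arrays.

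Fabp7, a fatty acid-binding protein of radial glia and astrocytes, had a negative change, and another astrocyte gene a positive one. It measured 258, 314 and 256 on PBS and 945, 1075 and 963 on kainate arrays at 24 h, then 154, 218 and 221 on PBS and 169, 183 and 201 on kainate arrays at 240 h. Kainate arrays were highest at 24 h and inside the PBS range at 240 h, and the change was −1.94 ± 0.23 (SE, limma adjusted p = 0.000379). Aldoc, a glycolytic aldolase of astrocytes, measured 2024, 2044 and 1945 on PBS and 1063, 1335 and 1013 on kainate arrays at 24 h, and 2506, 2344 and 2837 on PBS and 2684, 2239 and 2489 on kainate arrays at 240 h. Its kainate arrays were below all others at 24 h, and the change was 0.78 ± 0.18 (SE, limma adjusted p = 0.0424), passing in 3 of 12 fits that left out an array. The other probe set of Aldoc had a change of 0.55 that did not pass (limma adjusted p = 0.0951). These were the 2 passing genes of 16 astrocyte markers, whose median effect was −0.35 at 24 h and −0.09 at 240 h. Aldoc was also the only passing gene of 14 in glucose transport and glycolysis, while Pfkm, the muscle-type phosphofructokinase, did not pass (1.10 ± 0.34 SE, limma adjusted p = 0.103).

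The largest change belonged to H19, an imprinted non-coding RNA. It measured 43.3, 73.7 and 10.9 on PBS and 453, 502 and 438 on kainate arrays at 24 h, and 26.8, 58.0 and 71.3 on PBS and 10.9, 26.9 and 48.3 on kainate arrays at 240 h. Kainate arrays of 24 h were far above the other 9, and at 240 h both groups lay low and overlapped. The change was −4.82 ± 0.87 (SE, limma adjusted p = 0.0123). It did not pass with no filter on signal (limma adjusted p = 0.0849) or without an intensity trend (limma adjusted p = 0.0527), against 0.000341 to 0.0377 under the other settings that kept this probe set alone. The other probe set of H19 lay at the floor on every array but the kainate arrays of 24 h, passed the filter through these alone and lends no support. Igfbp2, a binding protein of insulin-like growth factors, changed by −1.63 ± 0.30 (SE, limma adjusted p = 0.0125). Markers of the choroid plexus varied between arrays, and the summed signal of 8 markers of it and of neighbouring regions was 1399 to 3833 on PBS and 2987 to 5816 on kainate arrays at 24 h, and 1019 to 3266 and 902 to 3601 at 240 h. On the kainate arrays of 24 h most of it was Ttr, transthyretin, with 2301, 5108 and 3606. Its part in these results was not tested. None of the 8 markers passed, including Avp and Adora2a with the smallest p (limma adjusted p = 0.362 and 0.412).

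On the list of extracellular matrix and remodelling genes Timp1 alone passed for the change. Of its 33 genes 8 were higher at 24 h (3.08% of all genes were). In the change 9 were lower and 2 higher at an unadjusted p under 0.05 (7.72% and 11.6% of all genes). Cd44, a hyaluronan receptor, had effects of 1.81 and −0.01 and a change of −1.82 ± 0.48 (SE, limma adjusted p = 0.0677). Spp1, osteopontin, had effects of 3.07 and 0.83, with a change of −2.23 ± 0.60 (SE, limma adjusted p = 0.0692). The gelatinase Mmp9 had effects of 2.31 and 0.38 (change limma adjusted p = 0.13). For Spp1 the 95% interval at 240 h was −0.08 to 1.74. Of 16 cytokine, chemokine and acute inflammation genes 0 passed for the change (1 lower at an unadjusted p under 0.05) and 0 at 24 h. Ptgs2, the inducible cyclooxygenase, had the smallest p (−1.06 ± 0.41 SE, limma adjusted p = 0.184). The other probe set of Ptgs2 had a change of 0.25 (limma adjusted p = 0.75).

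Negative changes passed for 2 of 18 activity-regulated effector genes. Vgf, a secreted precursor of neuropeptides induced by neuronal activity, had the smallest p among all named genes. It measured 455, 467 and 418 on PBS and 1378, 1207 and 1286 on kainate arrays at 24 h, then 516, 437 and 483 on PBS and 465, 348 and 348 on kainate arrays at 240 h. Kainate arrays were clearly highest at 24 h; at 240 h 2 of them lay below all PBS arrays and 1 inside their range. The effect went from 1.53 to −0.32 (95% interval −0.62 to −0.02), a change of −1.85 ± 0.20 (SE, limma adjusted p = 0.000161). Nptx2, a secreted pentraxin that gathers AMPA receptors at synapses, measured 236, 253 and 191 on PBS and 519, 641 and 528 on kainate arrays at 24 h, and 188, 209 and 195 on PBS and 197, 217 and 199.5 on kainate arrays at 240 h. Its groups were apart at 24 h and close together at 240 h, with a change of −1.26 ± 0.22 (SE, limma adjusted p = 0.00899) on 1 of 2 probe sets. No gene on this list passed as higher, and of all genes 1.05% passed as lower. The list was mixed, with 3 higher and 5 lower at an unadjusted p under 0.05 (11.6% and 7.72% of all genes). For the effect at 24 h 3 passed as higher and 2 as lower (3.08% and 3.87% of all genes).

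A further neuropeptide gene passed. Tac1, the precursor of substance P, measured 224, 236 and 188 on PBS and 511, 546 and 331 on kainate arrays at 24 h, and 144, 140.4 and 137 on PBS and 135, 147 and 107 on kainate arrays at 240 h. The difference between times was −1.81 on kainate and −0.62 on PBS arrays, and the change was −1.20 ± 0.28 (SE, limma adjusted p = 0.0449), passing in 2 of 12 fits that left out an array. The other probe set of Tac1 had a change of −1.37 that did not pass (limma adjusted p = 0.109). Of 28 neuropeptides and growth factors 2 passed as lower, Vgf and Tac1, and the median change was −0.21. At an unadjusted p under 0.05, 6 were lower and 6 higher (7.72% and 11.6% of all genes). Npy, neuropeptide Y of interneurons and sprouting granule cells, had effects of 0.77 and −0.06 and a change of −0.83 ± 0.24 (SE) that did not pass (limma adjusted p = 0.0824). Of 16 interneuron markers Tac1 alone passed; Crhbp, which binds corticotropin-releasing hormone, had a change of −2.13 ± 0.53 (SE, limma adjusted p = 0.0568).

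Promoter sequences were looked up for the 60 genes whose change passed, of which 54 had an entry in the RefSeq table for build GRCr8, 250 bases before to 50 after each start. An AP-1 motif, TGACTCA or its reverse complement TGAGTCA, occurred in 4.63% of all 33469 promoters, the cyclic AMP response element TGACGTCA in 1.83% and the STAT motif TTCCNGGAA in 1.27%, read on both strands; no motif overlapped another in the promoters shown. Among the 54 there was 1 promoter with AP-1, that of Cd63, and 1 with the cyclic AMP element, that of Vgf, and both genes changed downward. These are matches of letters and not shown to be sites. The promoters of Vgf (chr12:25276971-25277270, minus strand) and Cd63 (chr7:1921894-1922193, plus strand) are printed, chosen after the search, because they carry the matches, with the motif in capitals. In Vgf its first base lies 90 bases before the start, and in Cd63 143 bases before it. S100a4 (chr2:178388279-178388578, plus strand) and Ces1dl1 (chr19:38444174-38444473, plus strand) are shown beside them as promoters of large changes down and up without a match.
Vgf: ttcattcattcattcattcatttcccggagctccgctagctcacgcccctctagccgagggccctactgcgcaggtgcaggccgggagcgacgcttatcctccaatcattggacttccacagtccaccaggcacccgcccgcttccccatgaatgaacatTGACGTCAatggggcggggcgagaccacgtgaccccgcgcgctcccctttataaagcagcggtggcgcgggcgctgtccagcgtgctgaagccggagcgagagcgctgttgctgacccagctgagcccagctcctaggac
Cd63: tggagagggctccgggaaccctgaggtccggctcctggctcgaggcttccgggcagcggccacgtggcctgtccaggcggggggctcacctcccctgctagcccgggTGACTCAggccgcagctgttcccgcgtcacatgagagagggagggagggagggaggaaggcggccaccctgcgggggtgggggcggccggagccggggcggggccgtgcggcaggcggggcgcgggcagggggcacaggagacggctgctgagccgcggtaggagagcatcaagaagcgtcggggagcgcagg
S100a4: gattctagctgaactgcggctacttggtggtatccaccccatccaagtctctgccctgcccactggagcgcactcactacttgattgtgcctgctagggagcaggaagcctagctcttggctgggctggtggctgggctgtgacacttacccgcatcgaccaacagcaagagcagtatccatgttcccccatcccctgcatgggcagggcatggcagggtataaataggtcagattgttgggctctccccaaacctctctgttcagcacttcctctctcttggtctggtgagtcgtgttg
Ces1dl1: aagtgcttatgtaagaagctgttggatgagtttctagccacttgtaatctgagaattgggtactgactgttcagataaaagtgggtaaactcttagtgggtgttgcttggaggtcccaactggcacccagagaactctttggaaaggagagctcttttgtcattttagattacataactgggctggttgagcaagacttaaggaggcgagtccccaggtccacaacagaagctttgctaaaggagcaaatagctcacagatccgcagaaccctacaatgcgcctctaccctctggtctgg

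Positive changes passed for 3 genes of neuronal calcium signalling. Ppp3ca, the catalytic subunit of calcineurin, measured 1833, 1606 and 1822 on PBS and 921, 1021 and 749.9 on kainate arrays at 24 h, then 1442, 1646 and 1679 on PBS and 1598, 1824 and 1544 on kainate arrays at 240 h. Kainate arrays were lowest at 24 h and overlapped the PBS arrays at 240 h. The effect went from −0.98 to 0.06 (95% interval −0.22 to 0.34), a change of 1.03 ± 0.19 (SE, limma adjusted p = 0.0125) that passed whichever of the 12 arrays was left out. Itpr1, the endoplasmic reticulum calcium channel gated by inositol trisphosphate, measured 333, 277 and 278 on PBS and 161, 165 and 113 on kainate arrays at 24 h, and 415, 467 and 393 on PBS and 392, 406 and 435 on kainate arrays at 240 h. Hpca, the calcium sensor hippocalcin of pyramidal cells, measured 1604, 1378 and 1446 on PBS and 916, 990.5 and 919.7 on kainate arrays at 24 h, and 1652, 1719 and 2274 on PBS and 2071, 1975 and 1994 on kainate arrays at 240 h. Both had their kainate arrays lowest at 24 h and overlapping PBS at 240 h, with changes of 0.98 ± 0.23 (SE, limma adjusted p = 0.0472) and 0.76 ± 0.18 (SE, limma adjusted p = 0.0472), each passing in only 1 of 12 fits that left out an array. The other probe set of Itpr1, with a lower signal, had effects of −1.01 at 24 h and −1.10 at 240 h. Its change of −0.09 ± 0.88 (SE) did not pass (limma adjusted p = 0.969).

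Of 37 calcium-signalling genes these 3 passed as higher and 0 as lower, 11 were higher and 0 lower at an unadjusted p under 0.05 (11.6% and 7.72% of all genes), and 11 had fallen at 24 h (3.87% of all genes had). The median effect was −0.31 at 24 h and −0.08 at 240 h. Members that did not pass for the change include the plasma membrane calcium pumps Atp2b4 (−1.94 at 24 h, 0.10 at 240 h) and Atp2b2 (−0.85 and −0.17). The kinase Itpka, which phosphorylates inositol trisphosphate, had effects of −0.87 and −0.06. Of 25 neuron markers Ppp3ca and Hpca, which are on both lists, were the 2 that passed; 9 were higher and 1 lower at an unadjusted p under 0.05, with a median effect of −0.46 at 24 h and −0.09 at 240 h. The 1 lower was Map2, a dendritic microtubule protein, with effects of 0.36 and −0.33.

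For Gria1, a subunit of AMPA receptors, the groups were apart at both times. It measured 608, 548 and 589 on PBS and 247, 307 and 358 on kainate arrays at 24 h, and 728, 804 and 635 on PBS and 369.6, 590.3 and 487 on kainate arrays at 240 h. Kainate arrays were below all PBS arrays at both times, with effects of −0.95 and −0.60 (unadjusted p = 0.00443, limma, not passing). Its change of 0.35 ± 0.25 (SE, 95% interval −0.19 to 0.89) did not pass (limma adjusted p = 0.484). Camk2a, a kinase of synaptic plasticity, had effects of −1.90 and −0.75 and a change of 1.15 ± 0.56 (SE, limma adjusted p = 0.29). Calb1, calbindin of granule cells and interneurons, had effects of −0.37 and −0.41, neither passing. Of 23 glutamate receptors and transporters 0 passed for the change, with 4 higher and 2 lower at an unadjusted p under 0.05 (11.6% and 7.72% of all genes). The NMDA receptor subunits Grin2c and Grin2d had the smallest p (0.77 ± 0.25 and 1.11 ± 0.38 SE, limma adjusted p = 0.12 and 0.139).

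**Figure D3:**
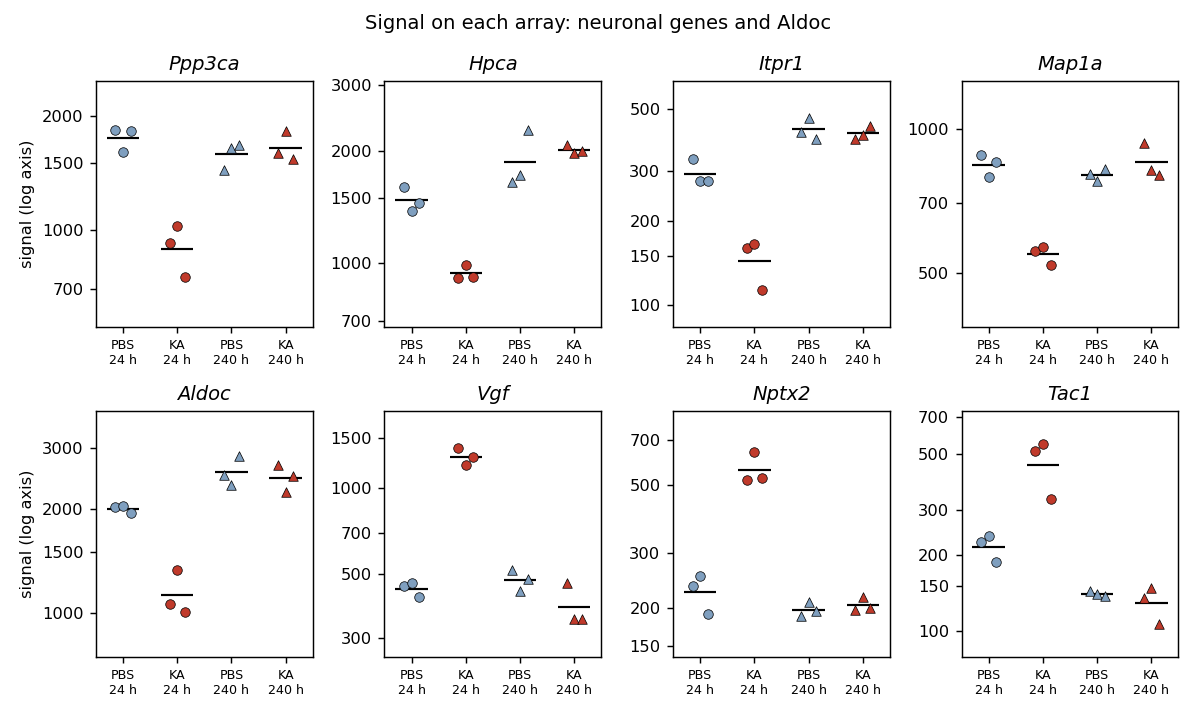
Signal of each array (vertical log axis) for 7 neuronal genes and the astrocyte gene Aldoc, with PBS and kainate (KA) arrays of 24 h (circles) and 240 h (triangles) side by side and horizontal lines at the group means of the log2 signal. Ppp3ca, Hpca, Itpr1, Map1a and Aldoc are lowest on the kainate arrays of 24 h, where Vgf, Nptx2 and Tac1 are highest, and lie close to PBS at 240 h.

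On the list of axon growth and cytoskeleton genes 1 of 24 passed. Map1a, a microtubule-associated protein of axons and dendrites, measured 885, 794 and 853 on PBS and 556, 566 and 519 on kainate arrays at 24 h, and 806, 779.6 and 824 on PBS and 937, 823 and 803 on kainate arrays at 240 h. Kainate arrays were lowest at 24 h and overlapped PBS at 240 h, and the change was 0.71 ± 0.16 (SE, limma adjusted p = 0.0411), passing in 1 of 12 fits that left out an array. On this list 5 were higher and 4 lower at an unadjusted p under 0.05 (11.6% and 7.72% of all genes). Tubb2b, a beta-tubulin of growing neurons, had effects of 0.41 and −0.19 (change limma adjusted p = 0.0664), and its PBS arrays were themselves lower at 240 h, with a log2 difference of −0.94 (limma adjusted p = 0.000373). None of 38 synaptic vesicle and release genes passed (4 higher and 2 lower unadjusted), the smallest p being those of Sv2b, a vesicle glycoprotein (−0.60 ± 0.19 SE, limma adjusted p = 0.106), and Syt4, a synaptotagmin (−0.56 ± 0.19 SE, limma adjusted p = 0.127). The other probe set of Sv2b had a change of 0.35 (limma adjusted p = 0.419).

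No change passed on the lists of voltage-gated and inward-rectifier channels and of GABA genes. Of 37 voltage-gated and inward-rectifier channel genes 0 passed, with 4 higher and 2 lower at an unadjusted p under 0.05 (11.6% and 7.72% of all genes). The median effect was −0.36 at 24 h, where 3 had fallen (3.87% of all genes had), against −0.09 at 240 h. The calcium channel subunits Cacnb1 (1.15 ± 0.31 SE, limma adjusted p = 0.068) and Cacna1g (1.07 ± 0.31 SE, limma adjusted p = 0.0872) came nearest. Of 19 genes of GABA receptors, synthesis and transport 0 passed and 1 was higher at the unadjusted level, Gabra6, a GABA-A receptor subunit (1.07 ± 0.49 SE, limma adjusted p = 0.264), followed by the GABA transporter Slc6a11 (limma adjusted p = 0.288).

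Immediate early transcription factors, which mark recent activity, had 0 higher and 3 lower of 19 at 24 h (3.08% and 3.87% of all genes). In the change 0 passed, and 5 were higher at an unadjusted p under 0.05 (11.6% of all genes were). Fos, an AP-1 subunit, measured 202, 245 and 213 on PBS and 248, 208 and 208 on kainate arrays at 24 h, and 183, 173 and 233 on PBS and 336, 325 and 296 on kainate arrays at 240 h. Groups overlapped at 24 h, and at 240 h all kainate arrays lay above all PBS arrays, with an effect of 0.71 (95% interval 0.37 to 1.05, unadjusted p = 0.000529, limma, not passing). The change of 0.70 ± 0.23 (SE) did not pass (limma adjusted p = 0.121). Egr4, a zinc finger factor, had effects of −0.70 and 0.60 and a change of 1.30 ± 0.33 (SE, limma adjusted p = 0.0568). Egr1 did not pass on the probe set that stands for it (0.69 ± 0.23 SE, limma adjusted p = 0.123), and 1 of its other 3 probe sets passed.

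The 12 largest positive changes came with differences between the PBS arrays of both times in several genes. Ces1dl1, a carboxylesterase gene, measured 175, 311 and 185 on PBS and 61.6, 44.3 and 61.0 on kainate arrays at 24 h, and 69.7, 64.1 and 157 on PBS and 155, 164 and 203 on kainate arrays at 240 h. Kainate arrays were below PBS at 24 h, and at 240 h they overlapped only through the highest PBS array. The change was 2.93 ± 0.45 (SE, limma adjusted p = 0.00305), made of 1.65 on the kainate arrays from 24 to 240 h and −1.28 on the PBS arrays (limma adjusted p = 0.0488). Stx7, an endosomal syntaxin, measured 176, 159.6 and 168 on PBS and 183, 94.96 and 88.0 on kainate arrays at 24 h, and 63.2, 62.8 and 51.3 on PBS and 147, 124 and 123 on kainate arrays at 240 h. Its PBS arrays fell by 1.51 on the log2 scale between the times (limma adjusted p = 0.00443) while the kainate arrays differed by 0.19, so the change of 1.70 ± 0.35 (SE, limma adjusted p = 0.0246) lay mostly in the controls. Gpr15lg (2.57 ± 0.49 SE) and Apom, a lipoprotein component (2.53 ± 0.57 SE), had PBS differences of −1.15 and −1.21. Slco1a4, an organic anion transporter of brain endothelium, changed by 1.68 ± 0.38 (SE) and was the only passing gene of 14 blood and endothelial markers. The others were the actin nucleator Spire1 (1.59), the thioesterase Ppt2 (1.54), the matrix protein Spon1 (1.48), Fam83f (1.44), Atxn7l3 (1.30), Zfp496 (1.28) and Nxpe5l3 (1.23). The other probe set of Ppt2 had a change of 0.42 that did not pass (limma adjusted p = 0.491). Of the 23 genes with a positive change 2, Ces1dl1 and Ppp3ca, passed whichever array was left out, and of the 37 with a negative change 18.

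Split by treatment, most passing changes lay on the kainate arrays. Between 24 and 240 h 620 probe sets differed on kainate arrays (10.5%), 313 higher (5.31%) and 307 lower (5.20%), and 124 on PBS arrays (2.10%), 72 higher (1.22%) and 52 lower (0.882%). For the 65 probe sets with a negative change the median difference between times was −1.33 on kainate and 0.27 on PBS arrays, and the kainate difference was the larger in 58. For the 35 with a positive change the medians were 1.04 and −0.43, and the kainate difference was the larger in 30. The PBS arrays differed between times by the test at 7 of the 65 and 4 of the 35. Ube2g2, a ubiquitin-conjugating enzyme, had a change of −2.78 ± 0.62 (SE, limma adjusted p = 0.0351) made of −1.66 on kainate and 1.13 on PBS arrays, and passed in 4 of 12 fits that left out an array. Apod, a lipid carrier of oligodendrocytes, was higher at 240 h in both treatments, by 1.58 on PBS and 0.71 on kainate arrays, and its change was −0.87 ± 0.19 (SE, limma adjusted p = 0.0347).

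**Figure D4:**
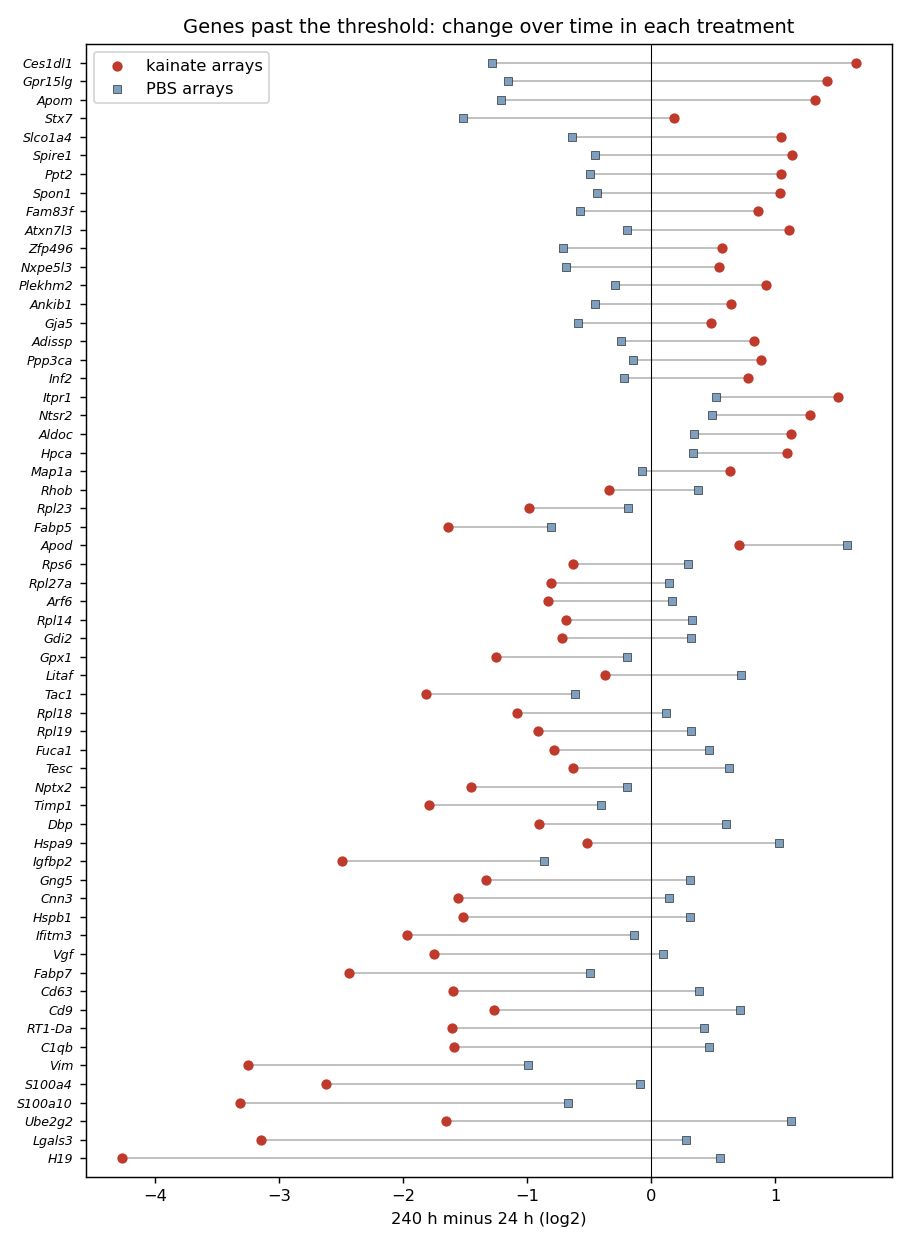
Difference between 240 and 24 h (horizontal axis, log2) on the kainate arrays (circles) and on the PBS arrays (squares) for each of the 60 genes whose change passed, ordered by the change. For genes at the bottom the kainate point lies far to the left of 0, as for H19 at −4.26 against 0.56 on PBS arrays, while for Stx7 near the top the PBS point (−1.51) is the one away from 0.

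On the lists of heat shock, oxidative stress and lipid genes 4 changes passed in all, each as lower. Hspa9, a mitochondrial chaperone, changed by −1.55 ± 0.33 (SE, limma adjusted p = 0.028) on 1 of 3 probe sets, with PBS arrays higher at 240 h by 1.03 (limma adjusted p = 0.0318). With Hspb1 it made 2 lower of 21 heat shock and endoplasmic reticulum stress genes. Gpx1, glutathione peroxidase, changed by −1.06 ± 0.24 (SE, limma adjusted p = 0.0402), 1 of 25 oxidative stress and metallothionein genes, while the secreted Gpx3 had 0.87 ± 0.32 (SE, limma adjusted p = 0.167). The other probe set of Gpx1 had a change of −1.13 that did not pass (limma adjusted p = 0.0613). None of 34 genes of oxidative phosphorylation passed, with 5 higher and 5 lower unadjusted (11.6% and 7.72% of all genes). The smallest p were those of Atp5f1c, an ATP synthase subunit, and Got1, a transaminase (limma adjusted p = 0.0696 and 0.106). Of 19 genes of cholesterol synthesis and lipid carriers Apod passed as lower and 5 were higher unadjusted (11.6% of all genes were). Among the 5 was Sqle, squalene epoxidase, with effects of −0.74 and −0.08 (change limma adjusted p = 0.0949). None of 17 cell cycle genes passed, Pcna, the DNA polymerase clamp, having effects of 0.78 and 0.18 and Ccnd2, a cyclin D, 0.21 and −0.63 (change limma adjusted p = 0.178 and 0.19). Their changes were −0.60 and −0.84, while the other probe set of each had 0.19 and 0.46, also not passing. None of 15 cell death regulators passed, Bcl2, which blocks apoptosis, and Bak1, which promotes it, having changes of 1.17 ± 0.34 and 0.85 ± 0.28 (SE, limma adjusted p = 0.0857 and 0.128). The remaining genes with the smallest p on their lists were Gjb1, connexin-32 of myelin (1.26 ± 0.51 SE, limma adjusted p = 0.202), Slc2a1, a glucose transporter of brain endothelium (−0.67 ± 0.21 SE, limma adjusted p = 0.106), and Il6r, the interleukin-6 receptor (0.62 ± 0.33 SE, limma adjusted p = 0.327). The other probe set of Slc2a1 had a change of 0.39 (limma adjusted p = 0.381).

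**Figure D5:**
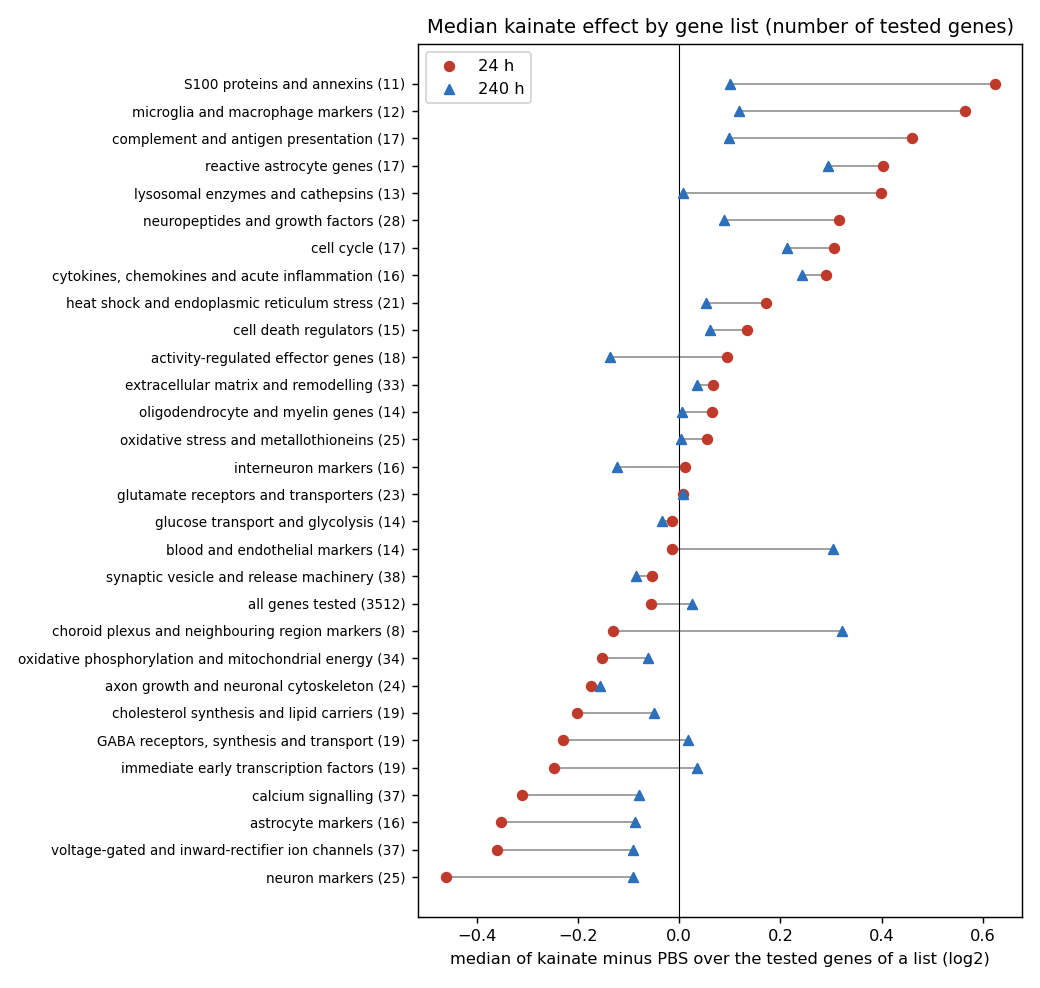
Median kainate effect of each gene list (horizontal axis, log2) at 24 h and at 240 h, with the number of tested genes. Medians at 240 h lie nearer to 0 for most lists, as for complement and antigen presentation (0.46 at 24 h, 0.10 at 240 h) and neuron markers (−0.46 and −0.09). Reactive astrocyte genes had 0.40 and 0.29, and cytokine, chemokine and acute inflammation genes 0.29 and 0.24. Blood and endothelial markers had a median of 0.30 at 240 h.

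At 240 h itself the genes with the smallest p did not pass. On the higher side these were Stx7, Gpr15lg, Fos and Pola2, a DNA polymerase alpha subunit with an effect of 1.99 against PBS arrays of 10.9, 14.9 and 10.9, where kainate arrays measured 51.9, 51.5 and 41.6 (unadjusted p = 0.000435, limma). The PBS values of 10.9 lie at the floor, and on average the PBS arrays of Pola2 stood higher at 24 than at 240 h. Its effect at 24 h was −0.39, and its change of 2.38 ± 0.63 (SE) did not pass (limma adjusted p = 0.0664). On the lower side Cap2, a cyclase-associated actin regulator, was below PBS at both times. It measured 276, 275 and 242 on PBS and 119.5, 172 and 144 on kainate arrays at 24 h, and 451, 502 and 454 on PBS and 233, 263 and 365 on kainate arrays at 240 h, without overlap at either time. Its effects of −0.88 and −0.73 left a change of 0.15 ± 0.26 (SE, 95% interval −0.41 to 0.70, limma adjusted p = 0.81), which turned to −0.04 without kainate replicate 3 of 240 h. Mapt, the microtubule protein tau, had an effect of −0.90 at 240 h on 1 probe set, but 0.47 and 0.46 on its other 2. Syt4 (−0.58) and Papss2, an enzyme that makes the sulfate donor (−1.81), had effects near 0 at 24 h (−0.02 and −0.22). No gene passed at both times with opposite signs, since none passed at 240 h.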

How the data were processed

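Total RNA of rat hippocampus was measured on Affymetrix arrays, of which 12 of 30 were used. As deposited by the authors, each array has 1 linear intensity for each probe set. The step from scan images to this intensity was not given in the sources used here. The arrays were already at a common level as deposited (trimmed means of 150.1 to 150.2 without 2% at each end). They were scaled to that mean, raised to a floor, the 20th percentile over all arrays (10.9, log2 3.44; 1.46% of tested values lay at the floor) and turned into log2.

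Groups were taken from the labels. Probe sets above 35 on at least 3 of the 12 arrays were tested, 67.5% of 8740; 14 of them passed this filter only through all 3 arrays of 1 group. Of the 8740, 7006 had 1 gene, 308 several and 1426 none in the platform annotation, and 6985 matched a current gene identifier. The probe set with the highest mean log2 signal stood for a gene, and Gfap, Cd74 and Cd68 were not analysed here.

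Tests used limma 3.58.1 in R 4.3.3: a mean per group, empirical Bayes moderation along mean intensity (8 residual degrees of freedom) and Benjamini-Hochberg adjustment over 5899 probe sets at a threshold of 0.05. The procedure was tested on simulated data. Arrays carry no read depth, so that precision is limited by how many there are. For low signals the floor can understate the effect at a single time, and the change between the times may be off in either direction. Python 3.11.15, pandas 2.3.3 and matplotlib 3.10.9 made tables and figures.

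The rule for named genes took the 12 passing genes with the most negative and the 12 with the most positive change, the 2 members of each list with the smallest p, and for 240 h, where none passed, the 4 genes on each side with the smallest p. Further genes named from the lists were chosen for their role. Its promoters were those of the 2 most negative and 2 most positive passing genes with an entry, Ube2g2, S100a4, Ces1dl1 and Gpr15lg, of which 2 are printed. The members, lists and rules were chosen with earlier results of these data known.

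Alternatives were the fit over all 30 arrays or over the 18 of 1, 24 and 240 h, replicate blocks, quantile normalization, signals as deposited, log2(signal + 16) or a floor of 35, other filters, moderation without trend or with robust estimates, array weights, averaging a gene's probe sets, and leaving out each array.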

Additional observations from a re-analysis of the deposited data

Results flagged for a closer look

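By the test of the difference between the times, the kainate effect differed between 24 and 240 h at 100 probe sets, and for 36 of the named genes. Negative changes on the log2 scale were those of glial, phagocyte and matrix genes: Lgals3 (−3.43), S100a10 (−2.65), S100a4 (−2.54), Vim (−2.26), C1qb (−2.05), RT1-Da (−2.03), Cd63 (−1.98), Fabp7 (−1.94), Timp1 (−1.39) and Apod (−0.87). Peptide and synaptic genes with negative changes were Vgf (−1.85), Nptx2 (−1.26) and Tac1 (−1.20). Others were H19 (−4.82), Ube2g2 (−2.78), Cd9 (−1.99), Hspb1 (−1.83), Hspa9 (−1.55) and Gpx1 (−1.06). Positive changes were those of Ces1dl1 (2.93), Gpr15lg (2.57), Apom (2.53), Stx7 (1.70), Slco1a4 (1.68), Spire1 (1.59), Ppt2 (1.54), Spon1 (1.48), Fam83f (1.44), Atxn7l3 (1.30), Zfp496 (1.28) and Nxpe5l3 (1.23). Neuronal and astrocyte genes with positive changes were Ppp3ca (1.03), Itpr1 (0.98), Hpca (0.76), Map1a (0.71) and Aldoc (0.78). The change and the named genes come from the same fit, so these values repeat the test given above and add no support to it.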

How the results depend on the processing

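With all 30 arrays in the fit, more probe sets passed: 371 for the change, 730 for the effect at 24 h, 2 at 240 h, 993 on kainate arrays between the times and 343 on PBS arrays. Of the 371, 99 were among the 100. Without an intensity trend it was 44 for the change, 230 at 24 h and 61 on PBS arrays. With no filter 1 passed at 240 h and 79 on PBS arrays, and with array weights 296 on PBS arrays. Leaving out 1 array at a time gave 34 to 122 for the change, 150 to 421 at 24 h, 0 to 1 at 240 h, 379 to 606 on kainate arrays and 42 to 144 on PBS arrays. The other settings stayed within 1.5 times of the counts given above. Deviations of kainate and PBS arrays with the same number and time correlated at −0.05 to 0.14 (median 0.02). Those with the same time and different numbers correlated at −0.14 to 0.11 (median 0.001). So few correlations cannot decide whether replicate numbers pair the arrays. With a replicate block over the 12 arrays 77 passed for the change and with a block within each time 74. Of the 36 named genes that passed, 15 did so whichever of the 12 arrays was left out, and 12 under all 15 other settings. Directions turned for Mapt, with 0.28 averaged over its probe sets, and Cap2, with −0.0417 without kainate replicate 3 of 240 h; the cause was not tested. The median standard error of the change over probe sets was 0.36, and signals at the floor bound a difference on 1 side only.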

Other observations

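Genes of cytosolic ribosomal proteins, a group looked at after its values had been seen, had mostly negative changes. The 39 tested genes were taken by symbol, Rpl or Rps followed by a number, which lets in related genes such as Rpl3l and Rps27l. Of these 39, 6 passed as lower (Rpl14, Rpl18, Rpl19, Rpl23, Rpl27a and Rps6) and 0 as higher, against 1.05% of all genes lower. The median effect was 0.26 at 24 h and −0.17 at 240 h. At 24 h 9 were higher and 1, Rpl3l, was lower (3.08% and 3.87% of all genes). Of the 39 changes 30 were negative, while 1969 of all 3512 genes had a positive change. Rps6, a protein of the small subunit, measured 1379, 1188 and 1289.6 on PBS and 2041, 2065 and 2333 on kainate arrays at 24 h, then 1809, 1503 and 1457 on PBS and 1313, 1256 and 1624 on kainate arrays at 240 h. Kainate arrays were the highest at 24 h and overlapped PBS at 240 h, with a change of −0.93 ± 0.19 (SE, limma adjusted p = 0.0207). These genes have many near-identical pseudogenes, and how far single probe sets separate them was not tested.

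Several passing genes belong to none of the lists and were named after their values had been seen. Ifitm3, an interferon-induced membrane protein, measured 108, 125 and 96.1 on PBS and 394, 386 and 379 on kainate arrays at 24 h, and 97.7, 90.2 and 111 on PBS and 75.6, 99.5 and 128 on kainate arrays at 240 h. Its change was −1.83 ± 0.28 (SE, limma adjusted p = 0.00356). Cnn3, an actin-binding calponin, changed by −1.70 ± 0.24 (SE, limma adjusted p = 0.0017) and Fabp5, a fatty acid-binding protein, by −0.83 ± 0.17 (SE, limma adjusted p = 0.028). Dbp, a transcription factor of circadian output, measured 168, 88.8 and 107 on PBS and 321, 302 and 291 on kainate arrays at 24 h, and 169, 171 and 194 on PBS and 161, 151 and 178 on kainate arrays at 240 h, with a change of −1.51 ± 0.29 (SE, limma adjusted p = 0.0165). The labels give no hour of day for the sampling. Ntsr2, a neurotensin receptor of astrocytes, had a positive change of 0.79 ± 0.17 (SE, limma adjusted p = 0.0347), with effects of −0.68 at 24 h and 0.11 at 240 h.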
